A study of Mus musculus with 24 samples.

Results

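Mir320, Mir484, Mir877 and Mir1224 are mouse miRNA genes whose products are known to mature without the Microprocessor, the nuclear complex of Drosha and Dgcr8. They were chosen by symbol from that knowledge and not by a measured value, although earlier results of these data were known when the choice was made. Of the 4 genes, 2 had a row in the table with that symbol alone, Mir320 and Mir484, each with 1 probe set, among 18820 genes with a row. Mir877 and Mir1224 were not analysed here. The 24 samples are labelled as males of the C57BL6/J background, all 8 weeks old, and the tissue was prefrontal cortex. The labels number them as replicates of each genotype without saying that each is a separate animal, and each is called a mouse here. The 12 mutant mice (MUT) carried the genotype labelled Df16(A)+/-, an engineered heterozygous deletion on chromosome 16 that takes away a copy of Dgcr8 together with its neighbouring genes. The 12 wild-type littermates (WT) carried no deletion. The deletion is present in every cell and covers many genes, so nothing measured here can be assigned to Dgcr8 alone. Total RNA, 100 ng per mouse, was labelled as cDNA and hybridised to an Affymetrix whole-transcript array, and all levels below are log2 RMA values.

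Most miRNAs start as a hairpin inside a long primary transcript. Dgcr8 recognises the hairpin, Drosha cuts it out, exportin-5 carries the precursor to the cytoplasm, and Dicer trims it to the mature miRNA. Some hairpins skip the first cut. Transcription of Mir320 and Mir484 begins at the hairpin itself, so that the precursor carries the cap of a nascent transcript and leaves the nucleus through exportin-1. Mir877 and Mir1224 are mirtrons, short introns cut out by the spliceosome and opened by the debranching enzyme Dbr1. Both kinds then enter Dicer like other precursors. An array row named to a miRNA gene reports any RNA that contains its sequence and does not measure the mature miRNA.

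Hairpins of Mir484, Mir877 and Mir1224 are given 5′ to 3′ as RefSeq lists them on build GRCm38.p6. The ends of an annotated hairpin do not by themselves show its route. For Mir484 (chr16:14159626-14159692, plus strand) capitals mark the mature miRNA, which begins near the 5′ end of the annotated hairpin. For the mirtrons Mir877 (chr17:35960730-35960814, minus strand) and Mir1224 (chr16:20604452-20604536, plus strand) capitals mark the terminal bases GU and AG, which are the ends of a spliced intron. Mir101a (chr4:101346945-101347027, minus strand) is shown for contrast as a precursor of the usual route, with both mature sequences in capitals. It had the largest genotype difference among precursors of a level like that of Mir320.
Mir484: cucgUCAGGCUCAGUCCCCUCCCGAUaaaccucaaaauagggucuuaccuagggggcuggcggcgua
Mir877: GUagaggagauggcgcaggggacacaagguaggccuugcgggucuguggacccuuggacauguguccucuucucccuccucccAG
Mir1224: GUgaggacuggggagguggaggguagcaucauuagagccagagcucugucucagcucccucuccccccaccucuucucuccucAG
Mir101a: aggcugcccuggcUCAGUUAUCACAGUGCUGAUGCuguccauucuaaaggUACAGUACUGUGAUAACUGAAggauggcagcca

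A mature miRNA finds its targets mainly through its seed, bases 2 to 8, given here in capitals. The RefSeq table matched 3 of the 4 members, Mir484, Mir877 and Mir1224, and not Mir320. No seed is shared among the mature sequences of these 3 genes, and none occurs in a mature miRNA of another gene in the table.
mmu-miR-484: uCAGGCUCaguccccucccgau
mmu-miR-877-5p: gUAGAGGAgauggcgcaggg
mmu-miR-877-3p: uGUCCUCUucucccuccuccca
mmu-miR-1224-5p: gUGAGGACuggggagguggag
mmu-miR-1224-3p: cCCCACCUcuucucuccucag

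The hairpins of Mir484, Mir877 and Mir1224 were set beside those of 262 other precursor genes with both a row and a listed hairpin. The Mir484 hairpin is 67 bases long, shorter than the median of 85 bases, and 8.02% of the others are shorter. Its share of G and C was 58.2%, that of Mir877 61.2% and that of Mir1224 60%, all above the median of 47.6% for the others. The predicted folding energy of Mir484 was -24.6 kcal/mol, weaker than the median of -35.8 kcal/mol, while the mirtrons reached -36.5 kcal/mol for Mir877 and -42.8 kcal/mol for Mir1224. Annotated hairpin ends are a convention of the database, so lengths and energies describe the annotation. Of 1005 hairpins in the RefSeq table, 30 (2.99%) start with GU and end with AG, and Mir877 and Mir1224 are among them.

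By position, Mir320 lies within 1 kb of Polr3d, a subunit gene of RNA polymerase III, on chromosome 14. Mir484 lies within 1 kb of Marf1, an RNA-binding protein gene, and within 5 kb of Nde1, a gene of centrosomes and cortical neurogenesis, on chromosome 16 but outside the deletion. Abcf1, which encodes a translation factor, holds Mir877, and Vwa5b2 holds Mir1224, which also lies within 1 kb of Alg3, a mannosyltransferase gene of protein glycosylation.

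Dgcr8 was lower in the mutants, as their label requires. Its level was 8.15, 8.25 and 8.42 (lowest, median, highest) in MUT mice, against 8.69, 8.80 and 8.84 in WT mice, and the groups did not overlap. The log2 fold change was -0.54 ± 0.03 (SE; limma, adjusted p = 5.2e-13). Over all 18820 genes, 143 (0.760%) passed the threshold of 0.05 on the adjusted p in either direction, of which 100 (0.531%) rose and 43 (0.228%) fell. The arrays were alike, with pairwise correlations between 0.994 and 0.997. On the first principal component, which holds 14.7% of the variance, MUT replicates 5, 9 and 10 were the farthest from the other arrays. Without those 3 mice, a choice made after seeing the data, Mir320 and Mir484 had log2 fold changes of 0.034 and 0.055, neither of which passed. The tissue label was set beside marker genes. The 5 measured markers of cortical excitatory neurons had mean levels between 9.92 for Neurod6 and 13.05 for Slc17a7, the 3 of striatum between 6.56 for Drd2 and 8.30 for Rarb, and the 3 of choroid plexus between 5.56 for Ttr and 5.96 for Kl. Single mice reached more. The highest value of Ttr was 7.61 in WT mice and 5.94 in MUT mice. For the olfactory bulb marker Th it was 8.35 in WT mice and 7.85 in MUT mice. Levels of different rows depend on their probes, so these values describe the tissue and do not test it. Of 54 listed markers of cortical and neighbouring cell types and blood 44 were measured and none passed the test. Of these 27 lay below 0 and 17 (38.6%) above, against 49% of all genes above 0. The lowest was the blood marker Ngp, with a log2 fold change of -1.20 ± 0.43 (SE, limma, adjusted p = 0.257). Its highest value was 7.49 in MUT mice and 10.64 in WT mice. In bulk tissue, fewer cells of a type and less RNA per cell cannot be told apart.

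Neither Mir320 nor Mir484 passed the test, against the 0.760% of all genes that did. Mir320 had 6.35, 6.59 and 6.99 (lowest, median, highest) in MUT mice, against 6.48, 6.61 and 6.79 in WT mice. The MUT mice spread more widely on both sides: 4 lay below the lowest WT mouse, 1 (replicate 1, the value of 6.99) lay above the highest, and 7 lay within the WT range. The mean was 6.59 ± 0.17 (SD, n = 12) in MUT mice and 6.60 ± 0.10 in WT mice, a log2 fold change of -0.02 ± 0.06 (SE; limma, adjusted p = 0.939). Its 95% confidence interval ran from -0.13 to 0.10, a fold between 0.914 and 1.07.

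Mir484 had 4.48, 4.63 and 4.80 (lowest, median, highest) in MUT mice, against 4.37, 4.58 and 4.71 in WT mice. The groups overlapped, with 10 of 12 MUT mice inside the WT range and the other two, replicates 8 and 9, above it. The mean was 4.64 ± 0.10 (SD, n = 12) in MUT mice and 4.57 ± 0.09 in WT mice, a log2 fold change of 0.06 ± 0.04 (SE; limma, adjusted p = 0.561). The interval ran from -0.02 to 0.14, a fold between 0.987 and 1.10. Mir484 sat at the 12.2 percentile of all genes by mean level. The table holds no detection call, so it does not show whether this row measured Mir484 RNA above background, and RMA compresses fold changes of dim rows.

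**Figure D1:**
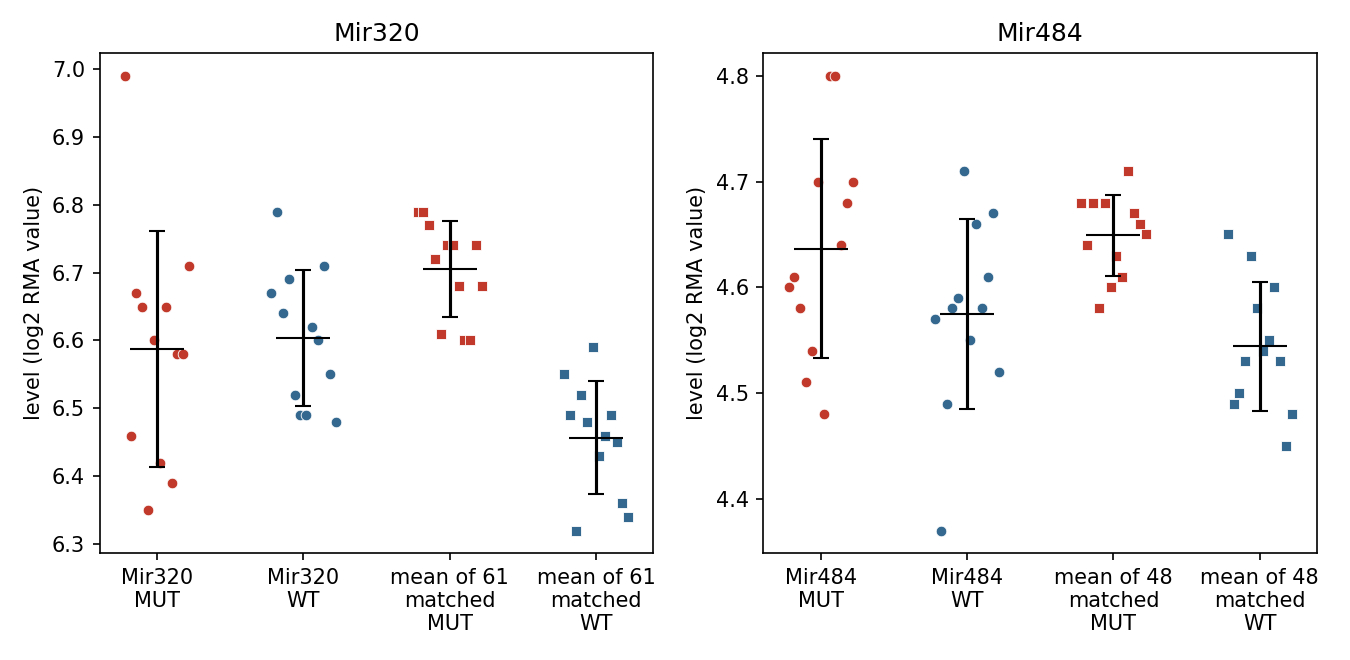
Level (log2 RMA value) of Mir320 and Mir484 in each mouse (circles), and the mean of their level-matched precursors in the same mice (squares), with MUT in red and WT in blue; black bars show the mean and SD of 12 mice. The members overlap between genotypes. The mean of the 61 precursors matched to Mir320 is at least 6.60 in every MUT mouse and at most 6.59 in WT mice. A mean over 61 rows varies less between mice than a single row. Its narrow separation therefore cannot be set against the overlap of Mir320.

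To set the members beside ordinary precursors, each was compared with the other precursor genes whose mean over the 24 arrays lay within 0.5 of its own on the log2 scale. These comparators are known from earlier results of the same data to be mostly higher in mutants, so they are a reference and not new evidence. Levels of different rows depend on their probes, and the match equalises brightness rather than the amount of RNA. Over the 300 other precursors, 59 rose, none fell and the median log2 fold change was 0.11, against -0.001 for all genes (limma; 132 of the 300, or 44%, had an unadjusted p under 0.05, against 2245 of all genes, or 11.9%).

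Of the 61 precursors matched to Mir320, 23 (37.7%) rose and none fell, and 53 had a log2 fold change above 0, with a median of 0.22. Their mean level per mouse was 6.70 ± 0.07 (SD, n = 12) in MUT mice and 6.46 ± 0.08 in WT mice. Mir320 was the 6th lowest of 62 when it was ranked with them by fold change. The upper bound of its interval, 0.10, lay below the fold changes of 40 of the 61.

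The difference between Mir320 and its comparators was then taken within each mouse and tested between genotypes. Mir320 minus the comparators' mean was -0.32, -0.11 and 0.20 (lowest, median, highest) in MUT mice, against -0.10, 0.15 and 0.32 in WT mice. Of the 12 MUT mice 6 lay below the lowest WT mouse, and 1, replicate 1 again, lay above the WT median. The difference between genotypes was -0.26 ± 0.06 (SE) on the log2 scale, with an interval from -0.38 to -0.15 (limma, adjusted p = 0.00013). Mir320 thus differed from the mean of precursors of like brightness. Without the 3 mutant mice named above the difference was -0.245 (adjusted p = 0.000613). In the same fit 88.6% of all 18820 genes were called, 88.3% as lower than these comparators and 0.234% as higher, so this position is that of most genes in the table and is not particular to Mir320. Of the comparators themselves, 22 of 61 were also lower than their own mean and 16 were higher.

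Mir484 did not differ from its level-matched comparators beyond the test's threshold. Of its 48 matched precursors 4 (8.33%) rose and none fell, 41 had a log2 fold change above 0 and the median was 0.08. Mir484 ranked 20th lowest of 49, and 10 of the 48 lay above the upper bound of its interval. Mir484 minus the comparators' mean was -0.15, -0.02 and 0.19 (lowest, median, highest) in MUT mice, against -0.12, 0.03 and 0.22 in WT mice, and 10 MUT mice lay within the WT range. The difference between genotypes was -0.04 ± 0.04 (SE), with an interval from -0.13 to 0.04 (limma, adjusted p = 0.392). Set against all 300 other precursors, most of them brighter than Mir484, the difference was -0.115 and passed (limma, adjusted p = 0.0233). The call thus depends on which comparators are used. The share of all genes called against those 300 was not counted. In the level-matched fit 42.3% of all genes were called, 41.8% as lower and 0.478% as higher. The interval holds 0 and also a shortfall as large as the comparators' median fold change, so Mir484 could be told neither from its comparators nor from a gene that did not differ between genotypes.

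**Figure D2:**
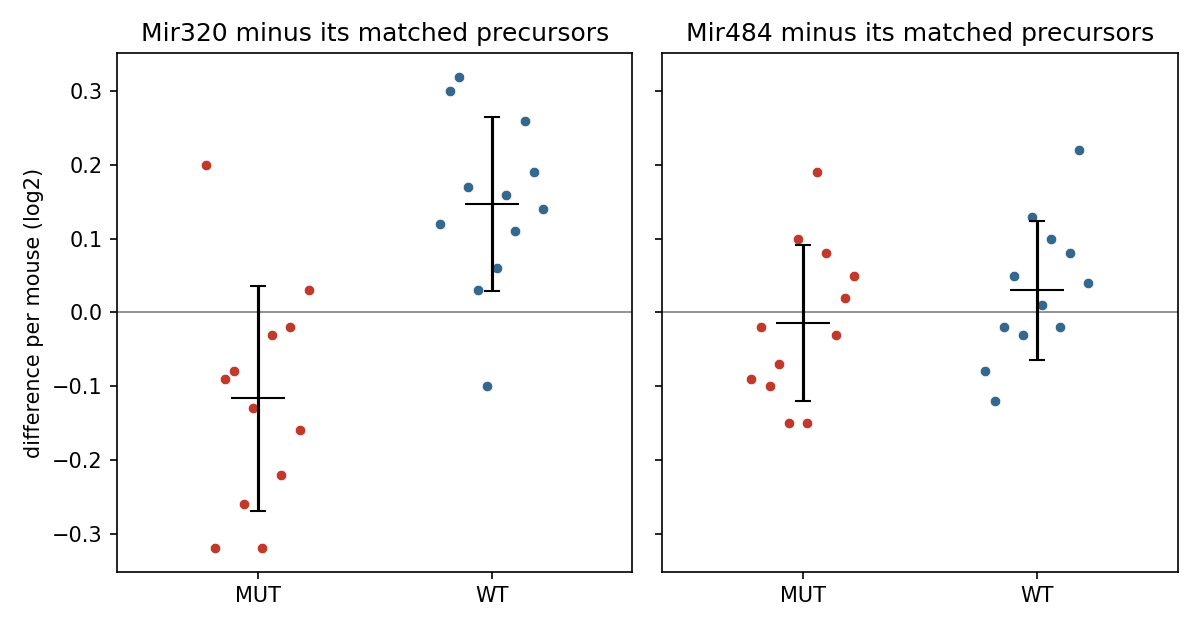
Each member minus the mean of its level-matched precursors in the same mouse (log2), MUT in red and WT in blue, with the mean and SD of 12 mice in black. For Mir320 the MUT mean is -0.12 and the WT mean 0.15; for Mir484 the means are -0.01 in MUT mice and 0.03 in WT mice, and the mice overlap.

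The count of other precursors that rose differed between quartiles of level, and the cause was not tested. Over all genes 0.531% rose. Among the 75 dimmest of the 300, up to a level of 4.51, 3 rose with a median of 0.06, and in the next quartile, which holds the level of Mir484, 4 of 75 rose with a median of 0.07. In the quartile that holds the level of Mir320, between 5.67 and 6.93, 19 of 75 rose with a median of 0.18. In the brightest quartile 33 of 75 rose with a median of 0.30.

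**Figure D3:**
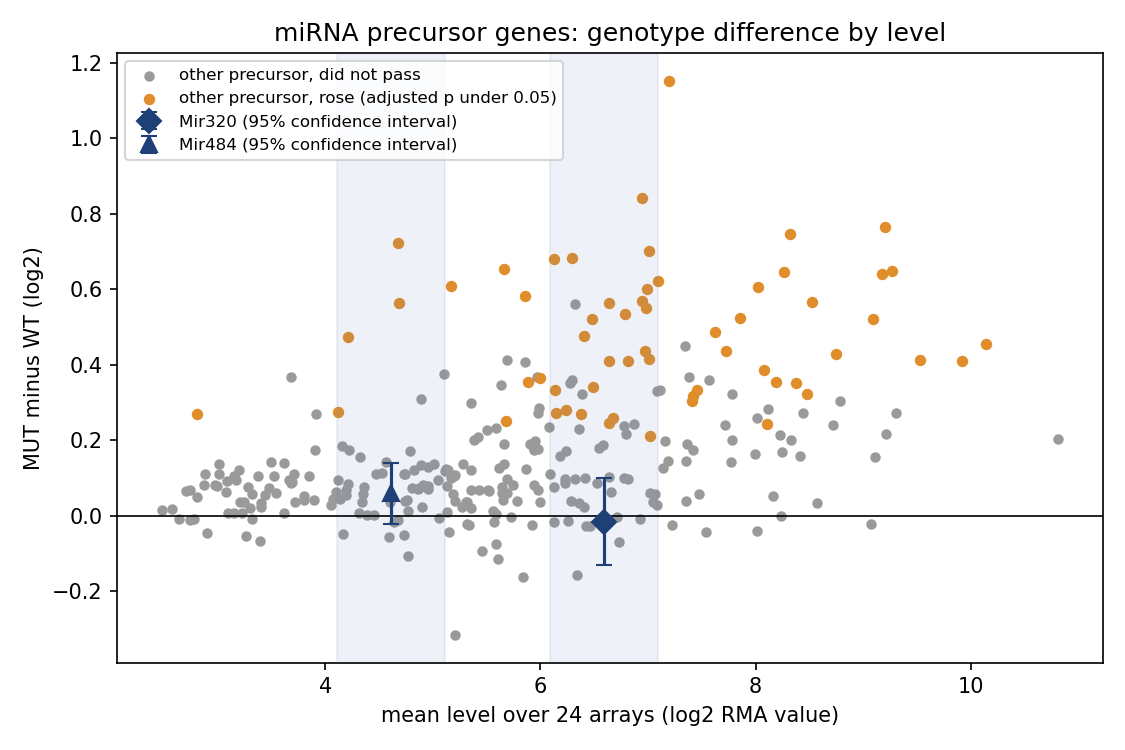
Genotype difference (MUT minus WT, log2) of the 300 other precursor genes against their mean level over 24 arrays, with those that rose in orange, and Mir320 and Mir484 in dark blue with 95% confidence intervals; shaded bands mark the levels within 0.5 of each member. Mir320 lies near 0 below most of its band, and Mir484 lies inside a band in which few precursors rose.

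Single precursors of like level illustrate the range. Nearest to Mir320 were Mir103-2, which lies in an intron of Pank2, with a log2 fold change of 0.19 ± 0.09 (SE; adjusted p = 0.39), Mir26a-1, an intronic precursor of Ctdspl, with 0.41 ± 0.08 (adjusted p = 0.0111), and Mir194-2, with 0.10 ± 0.06 (adjusted p = 0.541). Mir26a-1 rose, and Mir103-2 and Mir194-2 did not pass. The highest in the band was Mir101a, with 6.97, 7.38 and 7.62 (lowest, median, highest) in MUT mice against 6.20, 6.52 and 6.81 in WT mice, so that the groups did not overlap. Its log2 fold change was 0.84 ± 0.07 (limma, adjusted p = 1.19e-08). The lowest was Mir297b, of a rodent miRNA family with many copies, with -0.16 ± 0.07 (adjusted p = 0.38). In all precursors the range ran from -0.31 for Mir378a (adjusted p = 0.242) to 1.15 for Mir137 (adjusted p = 3.39e-11).

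Nearest in level to Mir484 were Mir122, Mir499 and Mir701. Mir122, the abundant miRNA of liver, had a mean level of 4.60 and a log2 fold change of 0.04 ± 0.08 (SE). Mir499, which lies in a muscle myosin gene, had a mean level of 4.60 and a fold change of -0.06 ± 0.08, and Mir701 had 4.64 and -0.02 ± 0.08. None of the 3 passed (limma, adjusted p = 0.888, 0.834 and 0.96). The highest of this band was Mir29a, with 0.72 ± 0.11 (adjusted p = 0.000379), and the lowest Mir205, an epithelial miRNA, with -0.11 ± 0.09 (adjusted p = 0.697). Mir451a, named outside the rule because its hairpin needs Drosha but is finished by Ago2 in place of Dicer, had 0.05 ± 0.06 (adjusted p = 0.786).

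The members varied less between mice than most precursors of like level. Within genotypes the SD of Mir320 was 0.14, against a median of 0.18 over its 61 comparators, of which 9 had a smaller SD. For Mir484 it was 0.10, against a median of 0.20 over 48, of which 1 had a smaller SD. The members did not vary together, with a Pearson correlation of -0.13 between their deviations from the genotype means over 24 arrays. The genes whose deviations followed Mir320 most closely were Hhatl (r = 0.78), Abcb9, a lysosomal peptide transporter (0.77), and Btbd17 (0.75). For Mir484 they were Ankrd13b (0.79), Map3k4, a kinase of stress signalling (0.75), and Igsf9b, an adhesion protein of inhibitory synapses (0.71). All arrays share their processing, and each triple was picked as the highest among all genes, so these values are a description.

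None of the 6 host and neighbour genes passed the test, against 0.760% of all genes. Their median log2 fold change was -0.02, against -0.001 for all genes. None had an unadjusted p under 0.05 (limma), against 11.9% of all genes. With 6 genes, these counts do not set the list apart. Polr3d, beside Mir320, had a mean of 7.83 ± 0.10 (SD, n = 12) in MUT mice and 7.86 ± 0.09 in WT mice, a log2 fold change of -0.03 ± 0.04 (SE). Marf1, beside Mir484, had 11.55 ± 0.03 in MUT mice and 11.57 ± 0.03 in WT mice, with -0.02 ± 0.02. Nde1, farther from Mir484, had 7.11 ± 0.08 in MUT mice and 7.09 ± 0.14 in WT mice, with 0.02 ± 0.05.

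The hosts are the only view of the mirtrons in this table, and they report the gene around the intron and not the intron itself. Abcf1, the host of Mir877, had 8.87 ± 0.08 (SD, n = 12) in MUT mice and 8.89 ± 0.09 in WT mice, a log2 fold change of -0.02 ± 0.04 (SE) with an interval from -0.09 to 0.05. Vwa5b2, the host of Mir1224, had 8.37 ± 0.09 in MUT mice and 8.33 ± 0.16 in WT mice, with 0.04 ± 0.05 and an interval from -0.06 to 0.14. Vwa5b2 has 2 probe sets, and the dimmer one, at a mean of 8.19, gave 0.07 ± 0.06. Alg3, the neighbour of Mir1224, had 9.78 ± 0.12 in MUT mice and 9.81 ± 0.09 in WT mice, with -0.03 ± 0.04.

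Of 34 measured genes of the miRNA pathway, of 35 listed, none rose and 2 fell, Dgcr8 and Ranbp1, which both lie in the deletion. Over all genes 0.531% rose and 0.228% fell. The median over the other 32 was -0.02, against -0.001 for all genes, and 9 of them (28.1%) had an unadjusted p under 0.05, against 11.9% of all genes (limma). In the Microprocessor, Drosha, the nuclease, had a log2 fold change of -0.01 ± 0.03 (SE), the helicase genes Ddx5 and Ddx17 had -0.05 ± 0.03 and 0.00 ± 0.03, and Srrt, which links the cap to miRNA processing, had 0.06 ± 0.03. Drosha had 9.77 ± 0.06 (SD, n = 12) in MUT mice and 9.78 ± 0.05 in WT mice. Of the 5 listed genes of the complex only Dgcr8 passed the test.

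None of the 5 genes listed for cap binding and export of capped RNA passed, against 0.760% of all genes. Of the 5, 2 (40%) had an unadjusted p under 0.05 (limma), against 11.9% of all genes. The cap-binding genes had -0.05 ± 0.03 (SE) for Ncbp1, -0.09 ± 0.04 for Ncbp2 and -0.03 ± 0.03 for Ncbp3. Phax, the adaptor between the cap and exportin-1, had 0.03 ± 0.03, and Xpo1, which encodes exportin-1, had -0.04 ± 0.03. Dbr1, the debranching enzyme of the mirtron route, had 7.11 ± 0.12 (SD, n = 12) in MUT mice and 7.16 ± 0.12 in WT mice, a log2 fold change of -0.05 ± 0.05. The adjusted p of these 6 genes lay between 0.381 for Ncbp2 and 0.754 for Dbr1 (limma).

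The Ran cycle powers exportins, exportin-1 of the capped precursors among them. In the list for export of precursors, Ranbp1, a regulator of this cycle, fell by 0.77 ± 0.03 (SE, limma, adjusted p = 9.69e-16). It had 9.66, 9.80 and 9.88 (lowest, median, highest) in MUT mice, against 10.42, 10.54 and 10.67 in WT mice, without overlap. Xpo5, which encodes exportin-5, had -0.06 ± 0.03, Ran itself -0.08 ± 0.03 and Rcc1, its exchange factor, -0.10 ± 0.04, and none of these passed (adjusted p = 0.369, 0.376 and 0.337).

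The later steps, which the members share with other precursors, had no gene that passed, against 0.760% of all genes. Dicer1 had a log2 fold change of -0.02 ± 0.03 (SE), its partner Tarbp2 0.06 ± 0.04, and Ago2, the slicing Argonaute, 0.05 ± 0.03. Hsp90aa1, a chaperone used in Argonaute loading, had -0.06 ± 0.02 (adjusted p = 0.242). Among silencing genes Tnrc6c had 0.07 ± 0.03 (adjusted p = 0.317). Among genes of tailing and turnover Lin28a, which blocks let-7 maturation, had 0.15 ± 0.06 (adjusted p = 0.32) at the 22.7 percentile of all genes, and Lin28b -0.11 ± 0.06.

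**Figure D4:**
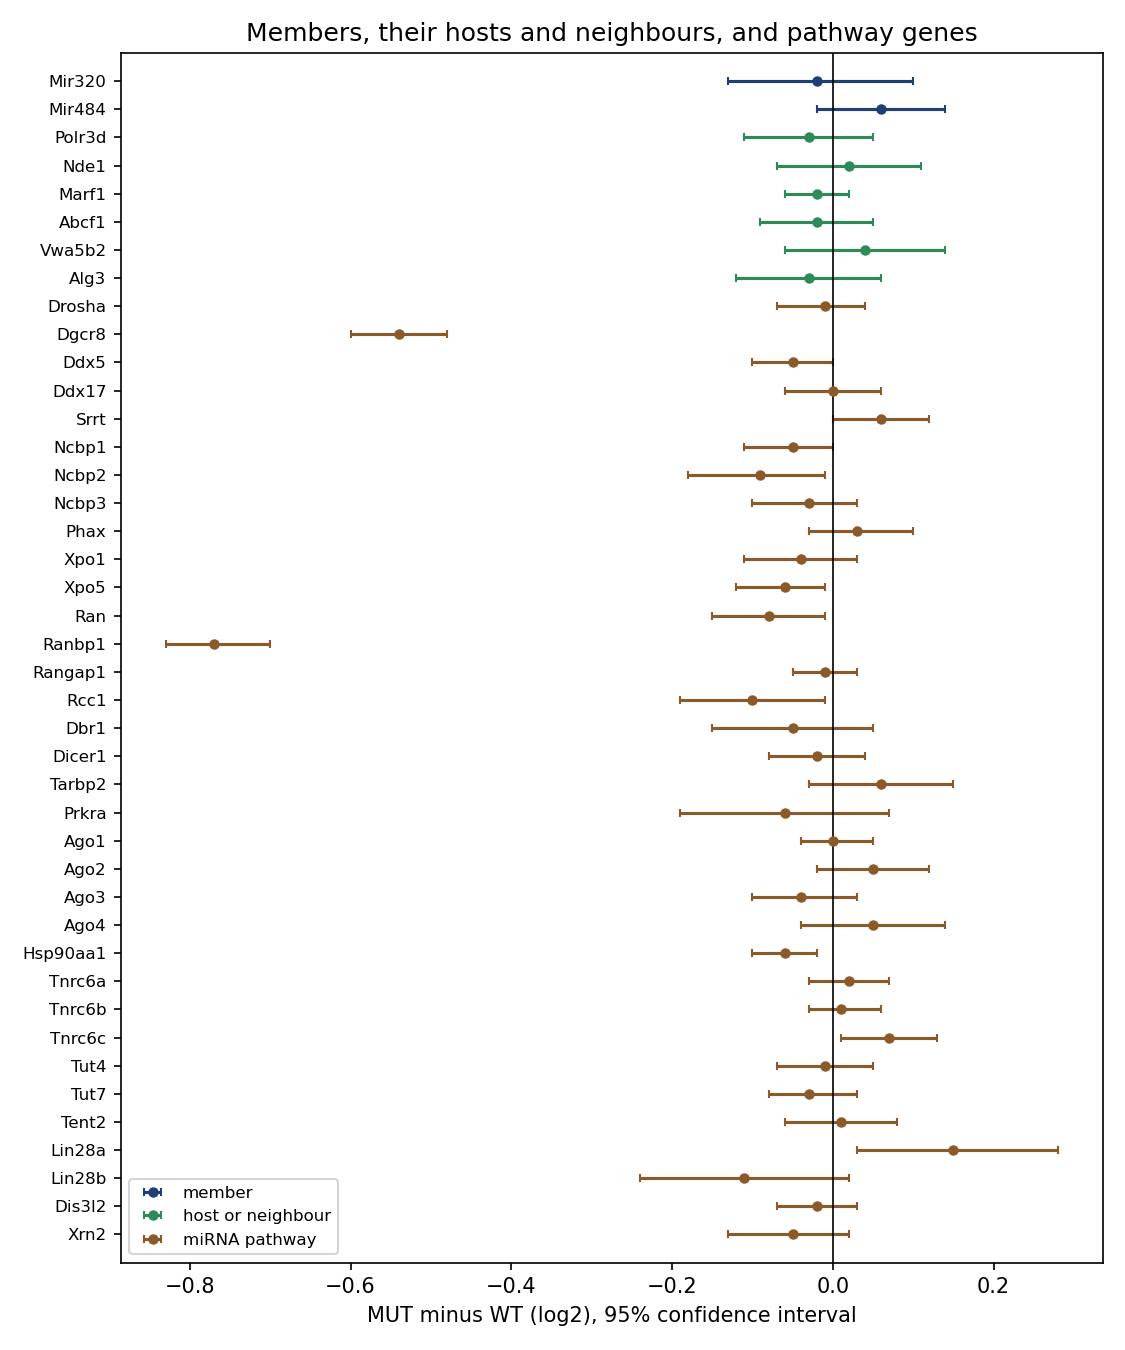
Log2 difference between MUT and WT mice with its 95% confidence interval (limma, 12 mice each) for the members, their hosts and neighbours, and the 34 measured pathway genes. Dgcr8 at -0.54 and Ranbp1 at -0.77 stand apart, and the other 32 pathway genes lie between -0.11 and 0.15.

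The labels carry a running array number, and the comparison was repeated within arrays 1 to 12 (7 MUT, 5 WT) and arrays 13 to 24 (5 MUT, 7 WT); the labels do not say what the number stands for. Mir320 had a log2 fold change of -0.07 ± 0.09 (SE) in the first set and 0.02 ± 0.06 in the second. Against its comparators it had -0.33 ± 0.09 in the first set and -0.20 ± 0.07 in the second (limma, adjusted p = 0.00387 and 0.0289). Mir484 had 0.05 ± 0.05 in the first set and 0.11 ± 0.04 in the second, and -0.03 ± 0.06 and -0.02 ± 0.06 against its comparators. The direction of Mir320 and the size of Mir484 thus varied within their errors. The difference of Mir320 from its comparators passed in both sets. Over all 24 arrays 88.6% of all genes were called in that fit, and the share within each set was not counted. The calls therefore do not set Mir320 apart.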

How the data were processed

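The labels' protocols give the miRNeasy kit for extraction and a whole-transcript sense labelling kit. The deposited table holds log2 values, 1 per probe set and mouse, made by the authors with RMA per the submitters' processing notes; the version is not given in the sources used here. Of 35556 probe sets, 21218 had 1 gene symbol in the platform annotation; the brightest stood for each of 18820 genes. MUT and WT were compared with limma 3.58.1 in R 4.3.3 (functions lmFit and eBayes; no covariate), with Benjamini-Hochberg adjustment over all genes, a threshold of 0.05 and 95% intervals. The comparator test subtracted, in each array, the mean of the level-matched precursors from every gene before the same fit. The steps were run on simulated data in which genes varied independently, which checks the code and not the real arrays. There, a rise added to the comparators returned as a difference of opposite sign in unchanged genes. Folding energies came from RNAfold 2.7.2. Named genes were the members, their hosts and neighbours, pathway genes by role and smallest p, the nearest and the extreme comparators, and the 3 genes most correlated with each member; Marf1 and Alg3 were added from their positions and Mir451a by choice. Members and lists were chosen with earlier results of these data known. The labels do not say that each array is a separate animal beyond calling it a replicate, so p-values measure the spread between these samples. The number of arrays limits the precision. Replicate numbers 1 to 12 are shared between genotypes, and the main fit did not treat mice with the same number as pairs. Deviations of mice with the same number correlated between -0.08 and 0.31, with a median of 0.1, and above 0.1 in 6 of 12 pairs. For mice with different numbers the median was -0.01. By these medians mice with the same number were somewhat more alike, so the correlations give no reason against pairing. Values from a fit that blocks on this number are given below.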

Additional observations from a re-analysis of the deposited data

How the results depend on the processing

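Neither member passed the genotype test under any of the alternatives run: another scaling, a variance trend, array weights, a filter on dim genes, other handling of probe sets, a replicate block, arrays 1 to 12 and 13 to 24 alone, and each mouse left out. The sign of Mir320 was not fixed: its log2 fold change was 0.018 in arrays 13 to 24, 0.034 without the 3 outlying mutant arrays (a setting chosen after seeing the data), and between -0.052 and 0.006 when each mouse was left out, above 0 without the mutants of replicates 5 or 9 or the wild type of replicate 2. Mir320 against its comparators kept its direction and passed in all 42 alternatives, from -0.331 to -0.193. In the main fit 88.6% of all genes were called too, so these passes do not set Mir320 apart. The share of all genes was not counted in the alternatives. Mir484 against its comparators passed in 1 of 41, when all other precursors replaced the level-matched ones (-0.115, adjusted p = 0.0233; range over the alternatives 0.0233 to 0.825); the cause was not tested. With the replicate block Mir320 and Mir484 against their comparators had -0.263 and -0.044, and the block changed no call of a member, host or pathway gene. Arrays 13 to 24 alone turned Polr3d (0.011), Nde1 (-0.036), Abcf1 (0.013), Vwa5b2 (-0.020) and Alg3 (0.055), quantile normalization turned Drosha (0.001), and Nde1 ran from -0.003 to 0.037 over the mice left out, below 0 without the wild type of replicate 5; none of these passed. The count of other precursors that rose was 24 in arrays 1 to 12 and 23 in arrays 13 to 24, with fewer mice in each. The filter on dim genes removed Mir484, so it gave no value there.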

Other observations

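Among the measured precursors outside the members, Mir185 left out, 2 have an annotated hairpin that starts with GU and ends with AG, as a mirtron would: Mir194-2 and Mir20a. Neither is known as a mirtron. Mir194-2 differed by 0.10 on the log2 scale (limma, adjusted p = 0.541) and Mir20a by 0.01 (adjusted p = 0.97) at a mean level of 3.23. They were picked after the hairpins were searched, and no test was built on them.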
